A study of Mus musculus with 12 samples.

Results

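Mx1, Mx2, Rsad2, Cmpk2, Isg15, Uba7, Ube2l6, Herc6, Isg20 and Bst2 are 10 interferon-stimulated genes. They were taken by symbol from a count table of mouse bone marrow-derived dendritic cells (DCs), in which all 10 were found among 55471 genes and all 10 passed the filter on low counts, with 18228 genes tested. The cells came from adult female C57BL/6 mice, were cultured with GM-CSF and carried a retroviral vector with a short hairpin RNA (shRNA) and a human CD8 reporter on which they were sorted. The hairpin targeted firefly luciferase (shControl) or Ppargc1b (shPpargc1b), the gene of the transcriptional coactivator PGC-1β. Each line was left unstimulated or given IFN-β for 6 h, which makes 4 groups of 3 libraries: shControl unstimulated, shControl with IFN-β, shPpargc1b unstimulated and shPpargc1b with IFN-β. All 4 groups share the transduction, the sort and the culture. The study made more than 1 Ppargc1b hairpin and relied mainly on the first, while the labels name none. The sources used here do not say whether the 3 libraries of a group came from separate cultures or animals, so p-values measure the spread between these libraries, which may be technical.

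Type I interferon binds a receptor of IFNAR1 and IFNAR2, and the kinases JAK1 and TYK2 then activate a transcription factor complex that binds the interferon-stimulated response element (ISRE) in the promoters of such genes. Mx1 and Mx2 encode dynamin-like GTPases that block virus replication, and laboratory strains such as C57BL/6 carry defective alleles of both, so that their RNA is a readout of the response and not of working protein. Rsad2 encodes viperin, a radical SAM enzyme that turns CTP into a chain-terminating nucleotide, and its neighbour Cmpk2 encodes a mitochondrial nucleotide kinase. Isg15 encodes a ubiquitin-like protein that is joined to other proteins (ISGylation) by an activating enzyme, Uba7, a conjugating enzyme, Ube2l6, and in the mouse mainly the ligase Herc6. Isg20 encodes an exonuclease that degrades RNA, and Bst2 encodes tetherin, a membrane protein that holds budding virus particles on the cell surface.

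The libraries held 49919648 to 77726101 counts. Ppargc1b itself was at 34.5 ± 1.94 CPM (mean ± SD, n = 3) in unstimulated shControl and 19.4 ± 0.851 in unstimulated shPpargc1b DCs. CPM are a library's counts scaled to a common total after TMM, edgeR's correction for library composition. With IFN-β Ppargc1b was at 27.8 ± 3.93 in shControl and 18.7 ± 2.83 in shPpargc1b. The knockdown changed it by -0.83 ± 0.10 on the log2 scale (SE) in unstimulated cells, with an adjusted p of 2.6e-05, and by -0.57 ± 0.11 under IFN-β, with an adjusted p of 9.0e-04, so the target RNA was reduced and not lost. All adjusted p-values come from edgeR's quasi-likelihood test on the counts, with Benjamini-Hochberg adjustment over the 18228 genes and a threshold of 0.05. All 9 dendritic markers (Itgax, Cd74 and others) were above 1 CPM in every group, with a summed level of 4439 to 6304 CPM. Macrophage markers summed to 2508 to 3482 CPM, neutrophil markers to 39.1 to 164 CPM, plasmacytoid DC markers to 155 to 285 CPM, mast cell or basophil markers to at most 13.5 CPM, lymphocyte markers to at most 0.788 CPM and erythroid markers to at most 0.128 CPM.

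The stretches before the start sites that hold an ISRE core are shown because this is the element that the IFN-β signal is known to act on, and no test here ties it to the response of these genes. RefSeq promoters (GRCm38.p6, 250 bases before to 50 after each start) were found for 8 of the 10 genes, in 10 windows, and not for Mx1 and Mx2. Both strands were searched for the core of the ISRE, GAAA followed by any 2 bases and another GAAA, which 3.44% of 32851 promoters hold. It was found for Isg15, Bst2 and Rsad2. The capitals mark a match, each sequence is read 5′ to 3′ on the strand of its gene, and all 3 genes lie on the minus strand.
Isg15, chr4:156200856-156200915, match starting 72 bases before the start site: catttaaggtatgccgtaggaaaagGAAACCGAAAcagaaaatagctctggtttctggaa
Bst2, chr8:71537562-71537621, match starting 124 bases before the start site: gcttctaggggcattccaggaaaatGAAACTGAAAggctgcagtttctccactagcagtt
Rsad2, chr12:26456538-26456597, match on the other strand 120 bases before the start site: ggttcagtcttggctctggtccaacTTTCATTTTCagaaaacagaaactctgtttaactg
The Isg15 match is the middle one of 3 that overlap, starting 78, 72 and 66 bases before the start site. The Bst2 match overlaps another at 130 bases.

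A shorter element, AANNGAAA, which binds interferon regulatory factors, is contained in every match of the ISRE core and occurs in 23.9% of the promoters. It was found in 5 of the 8 genes. These were the genes above, whose ISRE matches hold it by their letters, plus Isg20 and Uba7, on the opposite strand in the latter pair.
Isg20, chr7:78913337-78913394, plus strand, match 62 bases before the start site: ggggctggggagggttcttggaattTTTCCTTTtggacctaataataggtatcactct
Uba7, chr9:107975515-107975566, plus strand, match 27 bases before the start site: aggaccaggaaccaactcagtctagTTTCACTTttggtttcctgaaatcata
The gamma-activated sequence TTCNNNGAA, present in 8.30% of promoters, was found for Isg20 at 73 and for Bst2 at 136 bases before the start site, there overlapping an ISRE match. None of the 3 motifs was found in the windows of Ube2l6, Herc6 and Cmpk2, which says only that these letters are not in those windows.

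The first question was how IFN-β moved these genes in shControl DCs. All 10 rose, from 5.73-fold for Bst2 to 54.0-fold for Rsad2, and their share of all counts went from 0.0343% ± 0.00432 to 0.659% ± 0.0394. In bulk RNA, more cells that express a gene and more RNA per cell cannot be told apart. Levels below are, as above, CPM after TMM scaling, and folds are ratios of mean CPM.

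**Figure D1:**
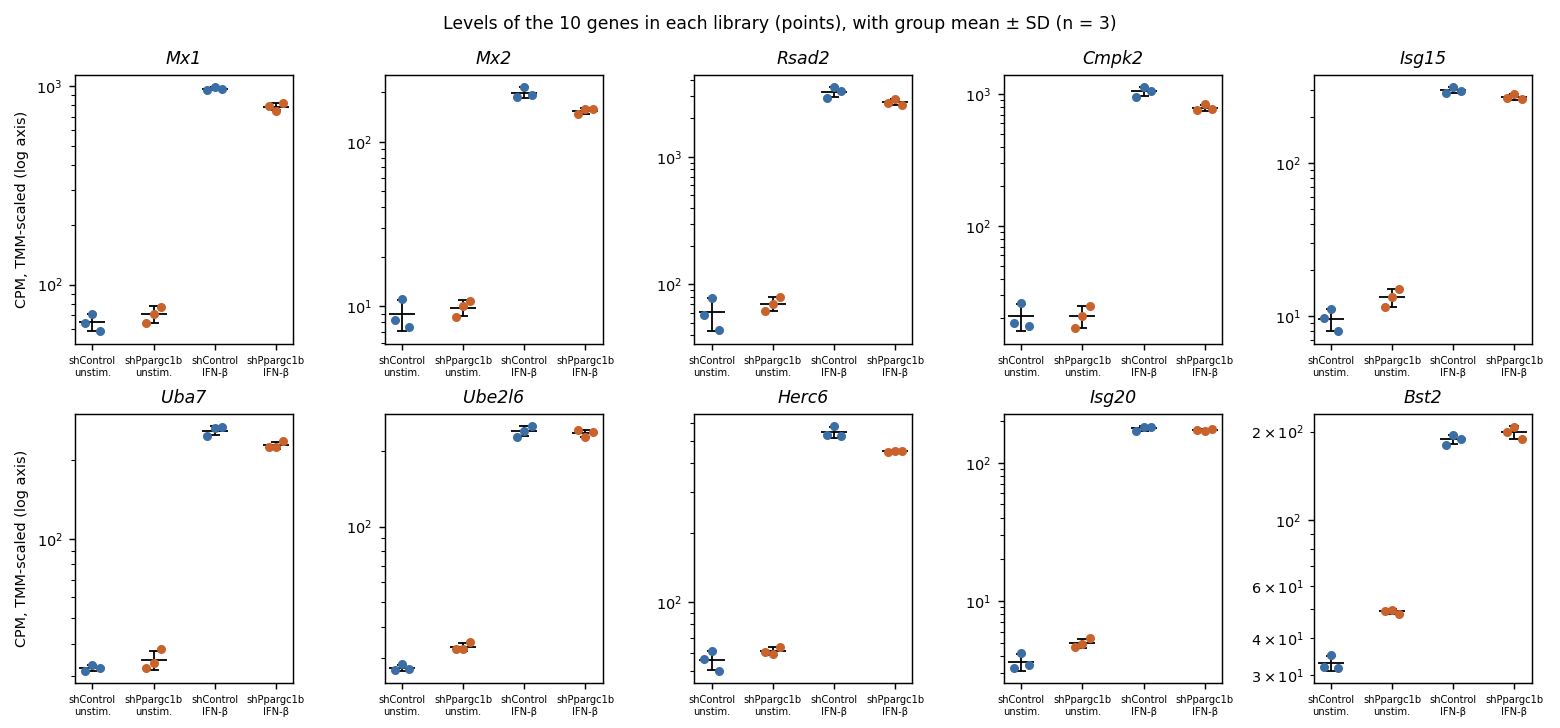
Levels of the 10 genes in CPM (log axis, its range set for each gene) in each of the 12 libraries (points) by group, with group means and SD (n = 3). In each gene the IFN-β libraries stand above all unstimulated libraries, and among the unstimulated libraries the lines are widest apart for Bst2, at 48.2 to 49.8 CPM in shPpargc1b and 31.5 to 34.9 CPM in shControl.

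Mx1 (ENSMUSG00000000386, chr16:97447035-97462907, minus strand, with all gene positions on GRCm38) was at 64.3, 70.9 and 58.2 CPM in unstimulated shControl libraries 1 to 3 and at 957, 989 and 960 CPM with IFN-β. The groups were far apart, a 15.02-fold rise (log2 fold change 3.91 ± 0.08 SE, adjusted p = 2.5e-15). In shPpargc1b DCs it was at 63.8, 71.2 and 77.4 CPM unstimulated and at 791, 751 and 816 CPM with IFN-β, an 11.1-fold rise. Mx2 (ENSMUSG00000023341, chr16:97535308-97560900, plus strand) lies 72400 bases from Mx1 with 4 genes between them. Its levels were 8.28, 11.1 and 7.47 CPM in unstimulated shControl and 188, 216 and 194 CPM with IFN-β, a 22.3-fold rise. In shPpargc1b DCs they were 8.63, 10.0 and 10.7 CPM and, with IFN-β, 147, 159 and 158 CPM, a 15.8-fold rise. Both MX genes were lower in every IFN-β shPpargc1b library than in any IFN-β shControl library, and overlapped between the lines without IFN-β. Their transcripts share 41 windows of 100 bases, 0.929% of those of Mx1 and 1.13% of those of Mx2, so few reads could be split between them.

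Rsad2 (ENSMUSG00000020641, chr12:26442746-26456452, minus strand), the gene of viperin, was at 57.9, 78.5 and 44.0 CPM in unstimulated shControl and at 2918, 3516 and 3300 CPM with IFN-β, a 54.0-fold rise. In shPpargc1b DCs it was at 61.4, 70.6 and 79.5 CPM and, with IFN-β, at 2646, 2841 and 2565 CPM, a 38.1-fold rise. Its unstimulated shControl libraries were the most spread of any gene here, with a coefficient of variation of 28.8%. Cmpk2 (ENSMUSG00000020638, chr12:26469204-26479837, plus strand) is transcribed away from Rsad2 with a gap of 12751 bases and 0 genes between. Its levels were 18.4, 26.4 and 17.7 CPM in unstimulated shControl and 959, 1132 and 1063 CPM with IFN-β, a 50.5-fold rise. In shPpargc1b DCs they were 17.0, 20.9 and 24.9 CPM and, with IFN-β, 760, 838 and 772 CPM, a 37.7-fold rise. The log2 fold changes of the neighbours lay within their standard errors of each other, with unstimulated libraries of both lines overlapping and IFN-β libraries of the lines apart.

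Of the ISGylation genes, the modifier rose most and its enzymes less. Isg15 (ENSMUSG00000035692, chr4:156199424-156200818, minus strand) was at 9.76, 11.1 and 7.997 CPM in unstimulated shControl and at 289, 316 and 296 CPM with IFN-β, a 31.2-fold rise. In shPpargc1b DCs it was at 11.5, 13.4 and 15.1 CPM and, with IFN-β, at 267, 285 and 264 CPM, a 20.4-fold rise. Here the lines did not overlap in either state, shPpargc1b being higher without and lower with IFN-β. Uba7 (ENSMUSG00000032596, chr9:107975505-107984060, plus strand), the activating enzyme, was at 31.5, 33.0 and 32.3 CPM in unstimulated shControl and at 247, 264 and 266 CPM with IFN-β, an 8.02-fold rise. Its shPpargc1b levels were 32.3, 33.6 and 38.0 CPM unstimulated and 223, 224 and 236 CPM with IFN-β, a 6.58-fold rise. The lines overlapped before IFN-β and not after it.

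Ube2l6 (ENSMUSG00000027078, chr2:84798828-84810335, plus strand), the conjugating enzyme, was at 26.9, 28.4 and 27.2 CPM in unstimulated shControl and at 228, 241 and 251 CPM with IFN-β, an 8.72-fold rise. In shPpargc1b DCs it was at 32.5, 32.7 and 34.8 CPM unstimulated and at 242, 228 and 238 CPM with IFN-β, a 7.08-fold rise. Its lines were apart before IFN-β, shPpargc1b being higher, and overlapped after it. Herc6 (ENSMUSG00000029798, chr6:57581000-57664632, plus strand), the ligase, was at 56.4, 61.1 and 50.3 CPM in unstimulated shControl and at 534, 581 and 527 CPM with IFN-β, a 9.78-fold rise. In shPpargc1b DCs it was at 60.5, 59.4 and 64.1 CPM unstimulated and at 446, 453 and 454 CPM with IFN-β, a 7.36-fold rise. Herc6 showed the reverse pattern to Ube2l6, overlapping lines before IFN-β and separate ones after it. Annotated gene Gm45193 shares 10.3% of the 100-base windows of Herc6 on the same strand and had 0 counts, and reads in exons of both may have been left uncounted.

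Isg20 (ENSMUSG00000039236, chr7:78913424-78920396, plus strand), the exonuclease, was at 3.25, 4.19 and 3.44 CPM in unstimulated shControl and reached 169, 182 and 181 CPM with IFN-β, a 48.8-fold rise. In shPpargc1b DCs it was at 4.64, 4.87 and 5.38 CPM and, with IFN-β, at 174, 170 and 177 CPM, a 35.0-fold rise. The lines were apart without IFN-β and overlapped with it. Bst2 (ENSMUSG00000046718, chr8:71534255-71537456, minus strand) was at 32.0, 34.9 and 31.5 CPM in unstimulated shControl and at 181, 195 and 189 CPM with IFN-β, a 5.73-fold rise. Its shPpargc1b levels were 49.5, 49.8 and 48.2 CPM unstimulated and 200.004, 208 and 188 CPM with IFN-β, a 4.04-fold rise. Tetherin is also a surface marker of mouse plasmacytoid DCs, and the plasmacytoid marker Siglech was at 0 to 4 counts per library, while Tcf4 and Runx2 made up most of the sum of that list.

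In shControl DCs 10 of the 10 genes rose with IFN-β (all adjusted p at most 2.0e-13), against 23.7% of all genes tested, and 10 had no overlap between groups, against 27.2% of all genes that were higher without overlap. The same held in shPpargc1b DCs, with 10 of 10 (adjusted p at most 6.0e-13) against 21.7%, and 10 of 10 without overlap against 24.7%. The median log2 fold change was 4.19 in shControl and 3.72 in shPpargc1b, beside -0.034 and -0.019 over all genes. Ranked among the 18228 genes from the highest log2 fold change, these genes lay between 40 (Rsad2) and 327 (Bst2) in shControl. The order of the log2 fold changes was Rsad2 (5.75 ± 0.17 SE), Cmpk2 (5.65 ± 0.15), Isg20 (5.605 ± 0.07), Isg15 (4.96 ± 0.10), Mx2 (4.47 ± 0.11), Mx1 (3.91 ± 0.08), Herc6 (3.29 ± 0.06), Ube2l6 (3.12 ± 0.05), Uba7 (3.003 ± 0.06) and Bst2 (2.52 ± 0.05). The first 3 lie within their standard errors of each other. With library totals in place of TMM, the median of all genes moved to -0.27 in shControl and -0.22 in shPpargc1b, and all 10 genes remained called in both lines.

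**Figure D2:**
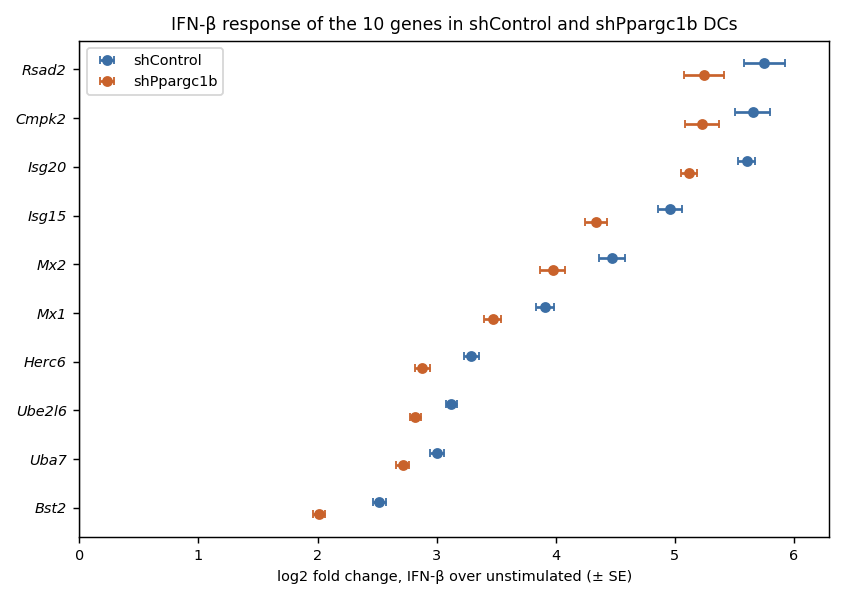
Log2 fold change by IFN-β (± SE) of the 10 genes in shControl and shPpargc1b DCs, ordered by shControl. For each gene the shPpargc1b value lies to the left of the shControl value, with medians of 3.72 and 4.19.

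Levels of different genes were compared per kilobase of exon. In unstimulated shControl DCs Bst2 led with 36.3 ± 2.03 CPM per kb, above all others without overlap. Mx1 (17.0 ± 1.67), Rsad2 (13.9 ± 3.999), Ube2l6 (13.8 ± 0.384) and Isg15 (12.7 ± 2.06) followed, each overlapping the next. Below Isg15 without overlap came Herc6 (6.02 ± 0.578), Cmpk2 (5.003 ± 1.16) and Uba7 (4.82 ± 0.109), each overlapping the next. Mx2 (2.48 ± 0.529) and Isg20 (1.95 ± 0.267) overlapped each other and lay below Uba7 without overlap. With IFN-β the order in shControl was Rsad2 (748 ± 69.9 CPM per kb), Isg15 (397 ± 18.1), Mx1 (256 ± 4.79), Cmpk2 (253 ± 21.0), Bst2 (208 ± 7.82), Ube2l6 (120 ± 5.68), Isg20 (95.2 ± 3.91), Herc6 (58.9 ± 3.20), Mx2 (55.2 ± 4.09) and Uba7 (38.7 ± 1.58). Mx1 and Cmpk2 overlapped, as did Herc6 and Mx2, while the other neighbours did not. In IFN-β shPpargc1b DCs Bst2 (220.0 ± 11.2 CPM per kb) stood next after Isg15 and overlapped Mx1 (208 ± 8.57), which overlapped Cmpk2 (190 ± 10.1).

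The second question was what the knockdown did before IFN-β. Isg15, Ube2l6, Isg20 and Bst2 rose in unstimulated shPpargc1b DCs, and 0 of the 10 genes fell. This is 4 of 10 against 12.6% of all genes tested that were higher and 11.4% that were lower. Bst2 changed most, to 150% of shControl (log2 fold change 0.58 ± 0.05 SE, adjusted p = 1.2e-06). Isg15 was at 139% (0.48 ± 0.11, adjusted p = 0.0038), Isg20 at 137% (0.45 ± 0.09, adjusted p = 0.0021) and Ube2l6 at 121% (0.28 ± 0.05, adjusted p = 6.9e-04). These 4 were also the genes whose libraries did not overlap, against 36.8% of all genes in either direction.

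The other 6 genes did not pass in unstimulated cells. The log2 value of Rsad2 was 0.23 ± 0.15 (SE, adjusted p = 0.302), that of Mx1 0.14 ± 0.07 (adjusted p = 0.189), that of Herc6 0.13 ± 0.06 (adjusted p = 0.135), that of Mx2 0.13 ± 0.12 (adjusted p = 0.494), that of Uba7 0.10 ± 0.06 (adjusted p = 0.223) and that of Cmpk2 0.01 ± 0.14 (adjusted p = 0.965). These values do not show that the lines are alike. The median over the 10 genes was 0.18, beside -0.0045 over all genes. The 4 calls held with any 1 library left out. Without shControl unstimulated replicate 2, Mx1, Mx2, Rsad2 and Herc6 were called higher too, 8 of 10. That library had the highest level of all 10 genes in its group. Mx1 was also called without shPpargc1b unstimulated replicate 1 (adjusted p = 0.0404). The neutrophil marker sum moved with this comparison, at 41.0 to 95.9 CPM in unstimulated shControl and 90.04 to 158 CPM in unstimulated shPpargc1b, ranges that overlap. S100a8 was the highest of its 8 markers, and 4 were under 1 CPM in both groups. Of those 4, Ly6g, Elane and Mpo had lower means in shPpargc1b. The plasmacytoid marker sum was also higher, at 155 to 179 and 207 to 233 CPM, again with 4 of 8 markers under 1 CPM. Their part in the result was not tested.

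With IFN-β, Mx1, Mx2, Cmpk2, Uba7 and Herc6 fell in shPpargc1b DCs, and 0 of the 10 genes rose, 5 of 10 against 12.9% of all genes tested that were lower and 11.5% that were higher. Cmpk2 was at 75.1% of shControl (log2 fold change -0.41 ± 0.12 SE, adjusted p = 0.0183), Mx2 at 77.6% (-0.37 ± 0.09, adjusted p = 0.0062), Mx1 at 81.1% (-0.30 ± 0.07, adjusted p = 0.0034), Herc6 at 82.5% (-0.28 ± 0.06, adjusted p = 0.0021) and Uba7 at 88.0% (-0.18 ± 0.05, adjusted p = 0.0164). Rsad2, at 82.7% (-0.27 ± 0.14, adjusted p = 0.176), and Isg15, at 90.6% (-0.14 ± 0.08, adjusted p = 0.222), did not pass although their libraries did not overlap either. That makes 7 of 10 genes without overlap, all lower, against 38.7% of all genes in either direction.

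Ube2l6, Isg20 and Bst2 overlapped between the lines with IFN-β. Their levels were 98.3%, 98.0% and 106% of shControl, with log2 fold changes of -0.03 ± 0.04 (SE), -0.03 ± 0.05 and 0.08 ± 0.05 and adjusted p-values of 0.731, 0.742 and 0.262. The median over the 10 genes was -0.23, beside -0.011 over all genes. The call of Cmpk2 was lost without shControl IFN-β replicate 2 (adjusted p = 0.0609) and that of Uba7 without shControl IFN-β replicate 3 (adjusted p = 0.0532). The neutrophil marker sum moved again, at 39.1 to 101 CPM in IFN-β shControl and 87.3 to 164 CPM in IFN-β shPpargc1b, ranges that overlap. In these groups 4 and 3 of its 8 markers were under 1 CPM, and Ly6g, Elane and Mpo again had lower means in shPpargc1b. The plasmacytoid sum was at 253 to 266 and 274 to 285 CPM, with 4 of 8 under 1 CPM in both, the dendritic sum at 4765 to 5776 and 5500 to 6304 CPM, and the macrophage sum at 3265 to 3482 and 3101 to 3187 CPM. Some of these markers moved with IFN-β themselves. In shControl the macrophage marker Fcgr1 went from 40.9 to 349 CPM and the plasmacytoid marker Tcf4 from 96.1 to 199 CPM. Fcgr1 was at 290 CPM in IFN-β shPpargc1b. The sums are thus not a measure of cell numbers alone, and the part of these cell types in the result was not tested.

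The interaction asks whether the knockdown effect differed between the states, that is, the effect with IFN-β minus the effect without it, which equals the IFN-β response in shPpargc1b minus that in shControl. It was below 0 for 10 of 10 genes, from -0.62 to -0.29 on the log2 scale. Isg15 (-0.62 ± 0.13 SE, adjusted p = 0.0467), Herc6 (-0.41 ± 0.08, adjusted p = 0.0370) and Bst2 (-0.50 ± 0.07, adjusted p = 0.0055) passed, 3 of 10 against 0.614% of all genes tested that were lower and 0.0658% that were higher. The median was -0.46, beside -0.00085 over all genes. Bst2 and Isg15 were called higher in shPpargc1b before IFN-β and did not pass after it, and Herc6 did not pass before IFN-β and was called lower after it.

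For the other 7 genes the interaction was Rsad2 -0.50 ± 0.20 (SE, adjusted p = 0.380), Mx2 -0.50 ± 0.15 (0.174), Isg20 -0.48 ± 0.11 (0.0555), Mx1 -0.44 ± 0.10 (0.0548), Cmpk2 -0.43 ± 0.18 (0.435), Ube2l6 -0.30 ± 0.07 (0.0525) and Uba7 -0.29 ± 0.08 (0.118). The number called moved between 0 and 10 over the alternatives. It was 1 (Bst2) without any 1 of 7 libraries and with library totals, 7 without shControl unstimulated replicate 2, and 8 when libraries with neighbouring codes in the labels were fitted as a block. The call of Bst2 held in all 19 alternative fits (adjusted p at most 0.0365) and was lost only with a limit of 1 on the size of the log2 fold change, which none of the 10 genes passed. Over the same fits that of Isg15 was lost in 10 and that of Herc6 in 9.

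**Figure D3:**
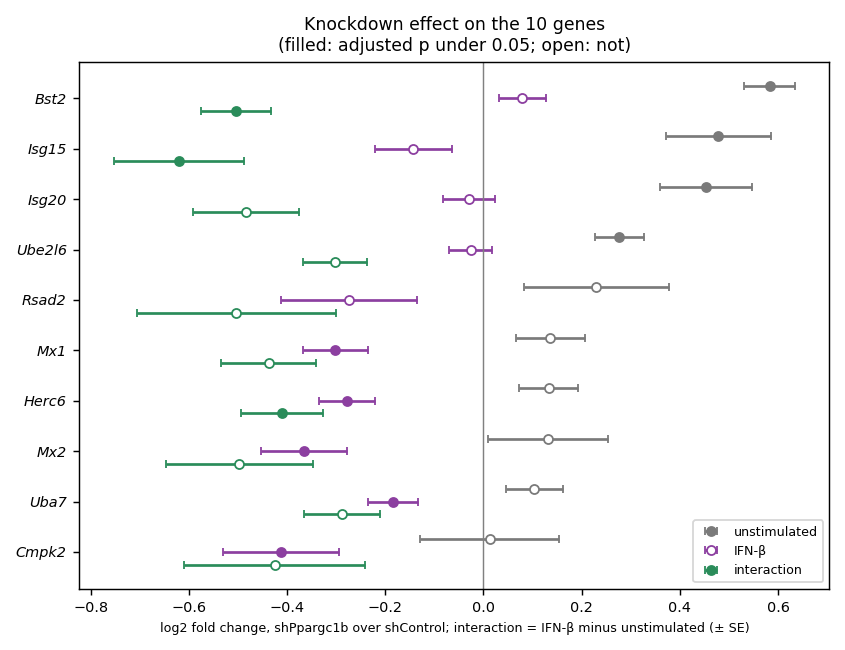
Log2 fold change (± SE) by the knockdown in unstimulated cells (grey) and with IFN-β (purple), and their difference, the interaction (green), for the 10 genes. Filled points passed the test: 4 grey points to the right of 0, 5 purple points to the left, and 3 green points to the left.

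The genes did not vary independently from library to library. In unstimulated shControl, replicate 2 was the highest for 10 of 10 genes, by 0.20 on the log2 scale on average over the group mean, and replicate 3 the lowest for 7. Replicate 3 was highest for 9 genes in unstimulated shPpargc1b and replicate 1 lowest for 8, while in IFN-β shControl replicate 1 was lowest for 9 and replicate 2 highest for 8. Among the IFN-β shPpargc1b libraries no such order was seen, none being highest for more than 5 genes. Deviations from group means were most alike for Rsad2 and Isg15 (Pearson r = 0.95 over 12 libraries) and for Mx2 and Cmpk2 (0.95), and 15 of 45 pairs had an r over 0.8. Bst2 followed the others less, with r from -0.045 (Uba7) to 0.67 (Rsad2) over its 9 pairs. All points of these correlations share libraries, depth and scaling factors. The means of 4 groups were taken off first, so the 12 points are not 12 independent values. No such counts were made for other genes, so they are not shown to be particular to these 10.

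**Figure D4:**
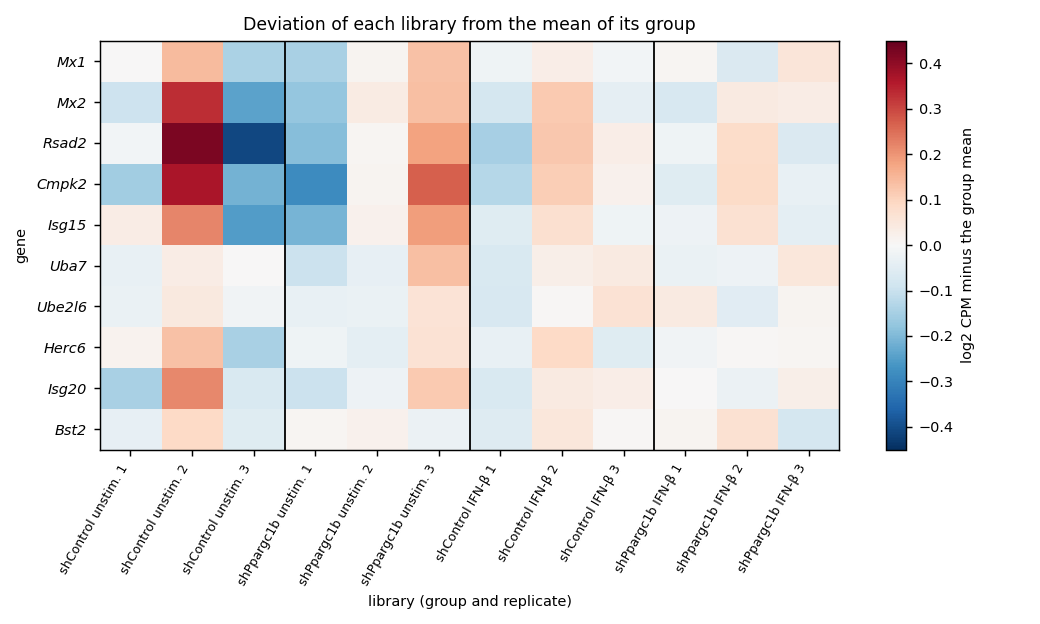
Log2 CPM of each gene in each library minus the mean of its group (colour, red above and blue below), with libraries ordered by group and replicate. The column of unstimulated shControl replicate 2 is red for all 10 genes, and the deviations of Rsad2, Cmpk2 and Mx2 are stronger in unstimulated than in IFN-β libraries.

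Genes of the receptor, signalling and feedback of this pathway were listed as well. Of 14 such genes tested, 13 rose and 1 (Irf3) fell with IFN-β in shControl, with a median log2 fold change of 0.75. Again 13 rose and 1 fell in shPpargc1b, with a median of 0.74. Of all 18228 genes tested, 23.7% rose and 4510 genes fell in shControl, and 21.7% rose and 3908 fell in shPpargc1b. The receptor genes Ifnar1 (0.48 ± 0.05 SE) and Ifnar2 (0.49 ± 0.06) rose little in shControl, as did the kinase genes Jak1 (0.40 ± 0.03) and Tyk2 (0.94 ± 0.04). Stat2 (2.66 ± 0.05) and the regulatory factor Irf7 (4.02 ± 0.11) rose more. In unstimulated cells 5 of the 14 were higher in shPpargc1b (Irf7 0.59 ± 0.10, Usp18, Socs3, Irf8 and Stat2) and 1 was lower (Irf2). Over all genes tested 12.6% were higher and 11.4% lower. With IFN-β 2 of the 14 were higher (Irf8 and Socs3) and 3 lower (Irf1 -0.34 ± 0.04, Irf2 and Tyk2). Over all genes 11.5% were higher and 12.9% lower. In the interaction 1 of the 14 passed, Irf7 at -0.71, against 0.614% of all genes that were lower. The median was 0.11 for the knockdown in unstimulated cells, -0.078 with IFN-β and -0.16 for the interaction.

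Of 8 other ISGylation genes, Usp18, which removes ISG15 from proteins and dampens receptor signalling, rose by 4.11 ± 0.10 (log2, SE) with IFN-β in shControl and Trim25, a ligase, by 1.33 ± 0.04. Usp14 (-0.50 ± 0.04) and Usp5 (-0.16 ± 0.05) fell, and the other 4 did not pass, among them Itgal and Itgb2, the chains of the integrin LFA-1, a surface receptor for secreted ISG15. The same 2 genes rose and 2 fell in shPpargc1b. Of all 18228 genes tested, 23.7% rose and 4510 genes fell in shControl, and 21.7% rose and 3908 fell in shPpargc1b. In unstimulated cells the knockdown raised Usp18 (0.58 ± 0.10, adjusted p = 5.2e-04) and Usp14 (0.17 ± 0.04) and lowered Usp21 (-0.17 ± 0.06). With IFN-β it raised Usp14 (0.26 ± 0.04) and lowered Trim25 (-0.19 ± 0.04). Over all genes tested, 12.6% were higher and 11.4% lower in unstimulated cells, and 11.5% and 12.9% with IFN-β. None of the 8 passed in the interaction, where Usp18 was at -0.56.

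There were 21 relatives that share a family or a biochemical role with the 10 genes. With IFN-β in shControl 6 rose, 6 fell and 9 did not pass, with a median log2 fold change of -0.017, and in shPpargc1b 6 rose and 5 fell. Of all 18228 genes tested, 23.7% rose and 4510 genes fell in shControl, and 21.7% rose and 3908 fell in shPpargc1b. None of the 21 reached a log2 value of 1: the highest was Herc3 (0.85 ± 0.06), and other family counterparts of the members were at 0.73 ± 0.04 for Uba1, the ubiquitin-activating enzyme, 0.32 ± 0.04 for Ube2l3 and 0.27 ± 0.04 for Cmpk1. Of the dynamin relatives, Dnm2 (0.0059 ± 0.04) and Dnm1l (-0.017 ± 0.04) did not pass and Opa1 fell (-0.11 ± 0.04, adjusted p = 0.0198). The knockdown raised 3 and lowered 5 of the 21 in unstimulated cells, against 12.6% and 11.4% of all genes tested. With IFN-β it raised 1 and lowered 4 of the 21, against 11.5% and 12.9%, and 0 passed in the interaction. Of 10 interferon ligand genes only Ifnb1 had enough counts to test, at most 24 in a library. From these low counts it was called higher with IFN-β in shControl (5.21 ± 0.92, adjusted p = 1.5e-04) and shPpargc1b (3.34 ± 0.59, adjusted p = 1.9e-04). The other 9 had at most 4 counts in any library.

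**Figure D5:**
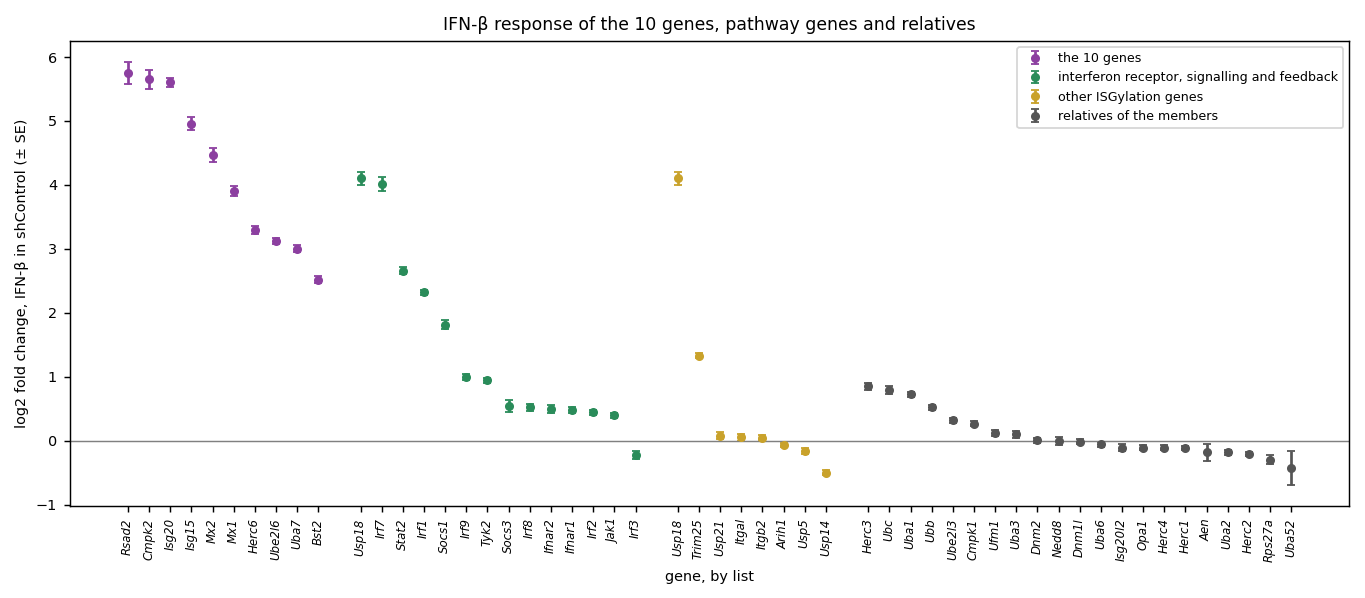
Log2 fold change by IFN-β in shControl DCs (± SE) for the 10 genes, 14 genes of the receptor, signalling and feedback, 8 other ISGylation genes and 21 relatives (Usp18 is in both middle lists). The 10 genes lie between 2.52 and 5.75, and the relatives between -0.42 and 0.85.

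Across the 12 libraries the gene whose log2 level was most like the mean of the 10 standardised log2 levels was Irgm1, an interferon-induced GTPase (Pearson r = 0.9998), followed by Oas3, Stat2, Znfx1 and Trim30a. The IFN-β step dominates such values, and 277 of 8741 genes compared had an r over 0.99.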

How the data were processed

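RNA was sequenced from DCs of 4 groups with 3 libraries each. The authors made the deposited file, a table of raw read counts per gene for all 12 libraries, with Trim Galore 0.6.0 and STAR (version 2.7.8a per the labels, another in the study's methods) on GRCm38 with GENCODE M20, counting reads per gene; the strand setting is not given in the sources used here. Ribosomal RNA was removed in library preparation. Groups came from the labels, which give no replicate numbers.

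From these counts, genes were filtered (filterByExpr, minimum count 10, minimum total 15, which left 18228 genes and 99.96% of counts), scaled by TMM and fitted with edgeR 4.0.16 (R 4.3.3) by the newer quasi-likelihood method with 1 mean per group over all 12 libraries, as the study's methods use edgeR. Fold changes are on the log2 scale. Each SE was derived from the edgeR test, as the size of the log2 fold change divided by the square root of its F statistic. Alternatives used DESeq2 1.42.0 and limma 3.58.1. The scripts were tested on simulated data. Likeness used log2 CPM (prior count 2) of genes with a mean of at least 3. Exon lengths and positions came from a GRCm38 annotation. Named genes are the 10 members, the listed pathway genes and relatives where a sentence needs them, and the 5 most alike. Some genes of the lists are not reported here. Members and lists were chosen with earlier results of these data known. Totals of 49919648 to 77726101 counts gave each gene at least 186 counts in each library.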

Additional observations from a re-analysis of the deposited data

Results flagged for a closer look

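The knockdown effect differed between IFN-β-treated and unstimulated cells, by the interaction term of the edgeR fit, for 3 of the 10 genes. Over all genes tested the term was lower for 0.614% and higher for 0.0658%. For the 3 genes the difference on the log2 scale was -0.62 for Isg15 (adjusted p = 0.0467), -0.41 for Herc6 (adjusted p = 0.0370) and -0.50 for Bst2 (adjusted p = 0.0055). The call of Bst2 held in 19 of 19 alternative fits (adjusted p 4.5e-08 to 0.0365) and was lost with a limit of 1 on the size of the log2 fold change, while the adjusted p ranged from 2.4e-10 to 0.162 for Isg15 and from 3.2e-07 to 0.127 for Herc6. Groups of 3 libraries are too small to test a single library as an outlier.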

How the results depend on the processing

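All 10 genes were called higher with IFN-β in both lines under every alternative run (each library left out, other scalings, filters, tests, samples and a block), 200 refitted values in each line, and with a fold limit. For the knockdown in unstimulated cells the count of 4 ranged from 4 to 8 with 1 library left out, was 7 over all genes with at least 1 count and 0 with a limit of 1 on the size of the log2 fold change. For the knockdown with IFN-β the count of 5 ranged from 4 to 5 with 1 library left out and was 0 with that fold limit. The interaction count of 3 ranged from 1 to 7 with 1 library left out. It was 6 with DESeq2 size factors, 1 with library totals, 10 over all genes with at least 1 count, 7 with the DESeq2 Wald test, 5 with edgeR's earlier quasi-likelihood method, 8 when libraries with neighbouring codes were fitted as a block, which the labels do not call a batch, and 0 with the fold limit. Apart from the fold limit, the cause of these changes was not tested. The sign turned only for the knockdown effect on Cmpk2 in unstimulated cells, to -0.00014 with library totals, -0.07 without shControl unstimulated replicate 1, -0.09 without replicate 3 of that group and -0.13 without shPpargc1b unstimulated replicate 3 (range -0.13 to 0.23 with 1 library left out), none of them called. With IFN-β, Cmpk2 was not called by the DESeq2 Wald test (adjusted p = 0.0762), and Rsad2 was called over all genes (3.4e-12) and with only the groups compared (0.0155). Of 40 group levels, 24 moved by more than 1 SD with library totals and 0 with DESeq2 size factors. The labels give no replicate numbers, so the block on neighbouring codes was the one blocked fit made. The lowest count of any of the 10 genes in a library was 186.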
